A study of Ovis aries with 6 samples.

Results

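Cell surface antigens that carry a CD (cluster of differentiation) number are the proteins by which leukocytes and many other cells are typed. They were followed here as transcripts in the somatic cells of sheep milk. The set holds every gene of the deposited table whose symbol is CD followed by a number, with or without a letter suffix, except CD24, CD68, CD74, CD79B, CD247 and the CD2-binding proteins. The rule reads symbols alone, though it was written with earlier results of these data known. Of the 11285 gene symbols in the table, 44 met the rule, and each was read from its most abundant transcript. A mean of at least 1 RPKM (reads per kilobase of transcript, scaled to the reads of the library) over the libraries was needed for testing, and 31 of the 44 reached it.

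The libraries came from 3 Comisana ewes at 90 days of lactation. The control group was 3 libraries from the ewes on grass hay and a commercial concentrate, fed for 3 weeks. The linseed group was 3 libraries from the same ewes fed grass, hay and a concentrate in which extruded linseed made up 20% of the dry matter, again for 3 weeks. RNA was taken with Trizol from the cell pellet of 250 ml of milk, and every ewe received linseed second, so diet and time of sampling cannot be told apart. The comparison asks which of these antigens differed in milk cells between the diets.

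Milk somatic cells are a mixture of shed mammary epithelial cells, macrophages, neutrophils and lymphocytes, and the CD antigens divide that mixture. CD3, CD4 and CD8 chains belong to T cells, CD79A to the B cell receptor, CD14 to monocytes and macrophages, and CD80 and CD86 to cells that present antigen. Tetraspanins such as CD9, CD53 and CD81 are four-pass membrane proteins that gather other receptors into membrane domains. In such bulk RNA, fewer cells of a type and less RNA per cell cannot be told apart.

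The libraries held 4941935 to 22644050 reads each, as solved from the steps of the RPKM values, and linseed sheep 1 was the shallowest. Milk protein genes took 47%, 35.4% and 4.24% of the reads in control sheep 1, 2 and 3, and 29.5%, 23% and 1.25% of them with linseed. Cell type markers moved between libraries by large factors. The mammary epithelial markers, 9 found of 12, summed to 40275 to 431243 RPKM in controls and 12485 to 344825 with linseed, lowest in sheep 3 under both diets. The T and NK cell markers, 7 found of 12, summed to 8.19 to 612 RPKM in controls and 64.7 to 153 with linseed. The macrophage markers (7 of 11) summed to 29.1 to 705 and 366 to 874 RPKM, and the neutrophil markers (5 of 9) to 422 to 954 and 2314 to 3187. Most of the neutrophil sum was S100A8 and S100A9. Of the 5 neutrophil markers 4 were higher with linseed in all 3 sheep, but FCGR3A averaged 65.5 RPKM in controls and 61.1 with linseed. Macrophage markers disagreed, as TREM2 and C1QA were higher with linseed in all 3 sheep and MRC1 and ITGAM lower. The B and plasma cell markers, 8 of 8, summed to 1.29 to 25.9 RPKM in controls and 7.48 to 28.6 with linseed. Of the endothelial and stromal markers, 4 of 8 found with sums of 5.00 to 33.4 and 5.01 to 84.1 RPKM, DCN was at 0 throughout. ALAS2, the only erythrocyte marker found (1 of 6), was also at 0. Of the T and NK cell markers, CD2, CD3D, CD3E and CD5 are themselves CD-numbered antigens, as is CD79A of the B cell markers. The part of these markers in the differences below was not tested.

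The heat map of 43 of the antigens gives the range of their levels. CD53, a tetraspanin of leukocytes, was the most abundant by mean RPKM, followed by CD9, CD81, CD164 and CD3E. At the other end, CD207 and CD1 stayed under 0.2 RPKM in each library.

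**Figure D1:**
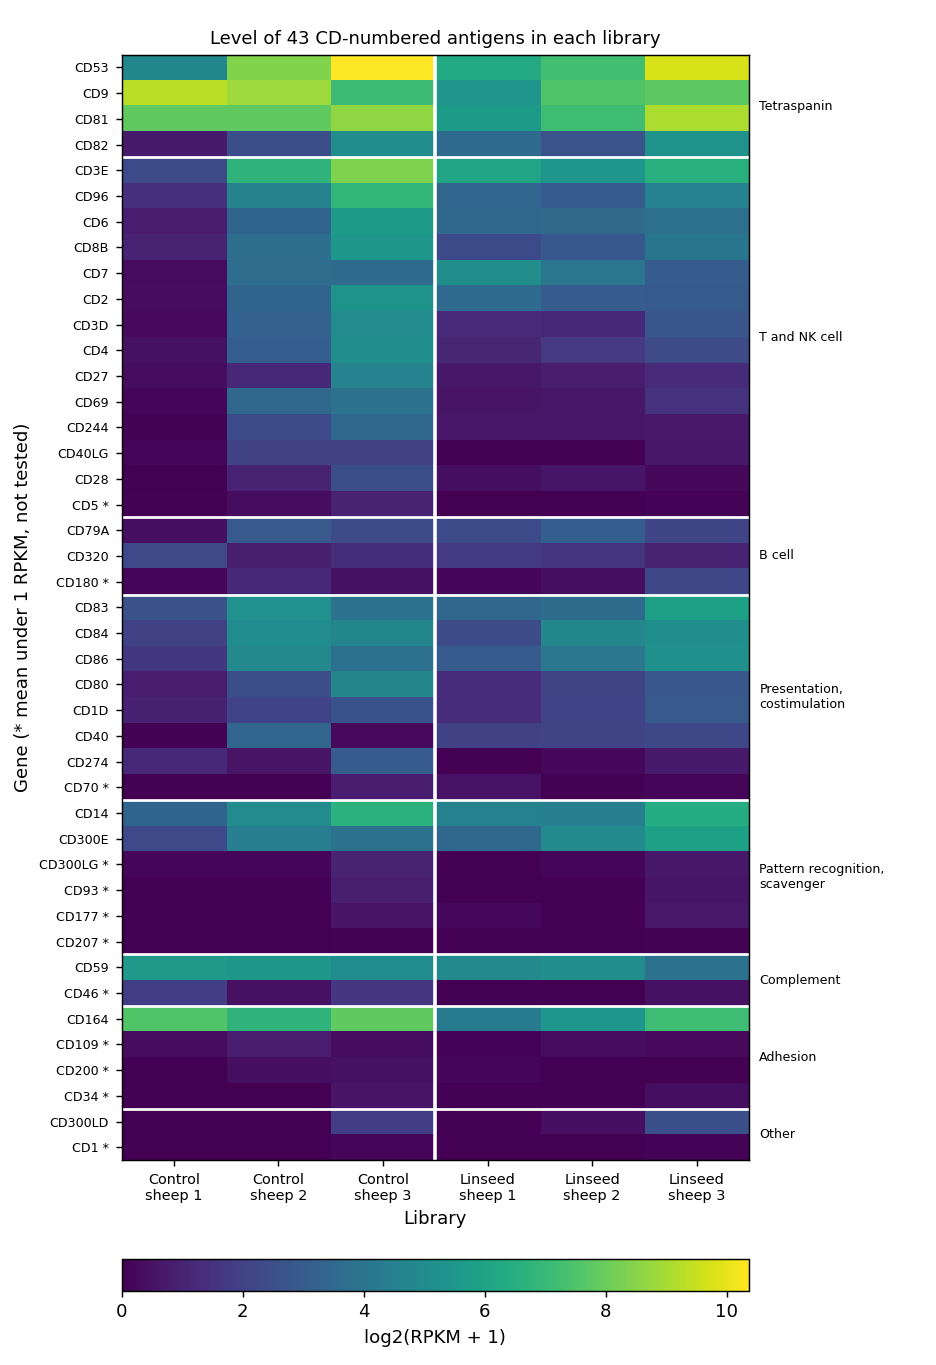
Colour shows the level of each antigen (rows, by role) in each library (columns, control left and linseed right) as log2(RPKM + 1), and an asterisk marks antigens under a mean of 1 RPKM. Control sheep 1 is dark in the T and NK cell rows, where CD3E had 4.08 RPKM against 328 in control sheep 3, and bright for CD9, at 629 RPKM.

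None of the 31 tested antigens passed the test between diets. With limma on log2(RPKM + 1), 0 passed an adjusted p of 0.05 in either direction, as was the case for 0% of the 15891 transcripts tested, and the smallest adjusted p among the antigens was 0.313. At an unadjusted p under 0.05, limma had 0 antigens higher and 1 lower, CD164, against 8.5% and 7% of all transcripts. Limma with voom weights on the recovered reads also called 0 antigens, with 0 at an unadjusted p under 0.05. With the sheep as a block, which uses the differences within a sheep, limma again called 0 antigens, against 1.28% of all transcripts called higher and 1.34% lower. At an unadjusted p under 0.05, the blocked fit of limma had 1 antigen higher, CD300E, and 5 lower, CD164, CD69, CD244, CD274 and CD40LG, against 12.7% and 14.3%. The ranges of the 2 groups overlapped for each of the 31 antigens, whereas linseed lay wholly above control in 13.3% of all transcripts and wholly below in 7.83%. The median log2 change of the 31 antigens was -0.09, and that of all tested transcripts was -0.12.

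Within sheep, the antigens moved in different directions. Only 3 of 31 were higher with linseed in all 3 sheep (CD300E, CD82 and CD1D), against 23% of all transcripts. Another 4 were lower in all 3 (CD164, CD59, CD274 and CD40LG), against 26.2%. For CD40LG the sheep 1 difference is only that of 2 control reads from 0 reads with linseed. The median difference of the 31 antigens was 0.65 on the log2 scale in sheep 1, -0.50 in sheep 2 and -0.69 in sheep 3, whereas the medians of all tested transcripts were 0.02, 0.03 and -0.22. In sheep 1, 23 of 31 were higher with linseed, against 50.5% of all transcripts, while 23 of 31 were lower in sheep 2 (48.7% of all) and 21 of 31 in sheep 3 (57.4% of all). Control sheep 1 had the lowest value of the 6 libraries for 23 of the 31 antigens, against 33% of all transcripts. Without control sheep 1 the median change of the antigens was -1.07, and without control sheep 3 it was 0.43.

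**Figure D2:**
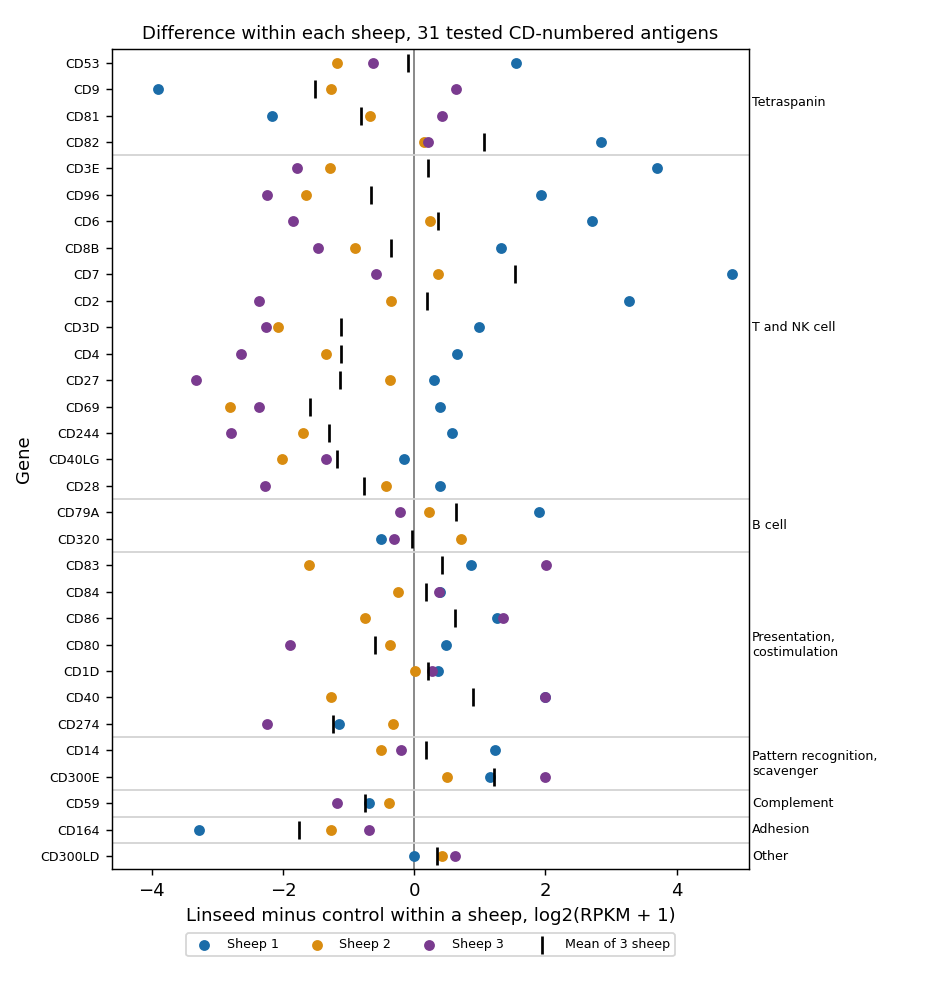
Each point is the difference between linseed and control in 1 sheep, on the scale of log2(RPKM + 1), for the 31 tested antigens grouped by role, and the bar is the mean of the 3 sheep. In the T and NK cell rows, all 13 points of sheep 3 lie left of 0 and 12 of 13 points of sheep 1 lie right of it.

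T and NK cell receptors formed the largest role group, with 14 genes found and 13 tested, and they moved in opposite directions between sheep. All 13 were lower with linseed in sheep 3 and 11 of 13 in sheep 2, while 12 of 13 were higher in sheep 1. The pair of directions seen in 12 of these 13 genes, higher in sheep 1 and lower in sheep 3, occurred in 22% of all transcripts. Their median log2 difference was 0.99 in sheep 1, -1.28 in sheep 2 and -2.26 in sheep 3. With median-of-ratios scaling, quantile normalization or a total that omits milk proteins the counts by sheep were the same, and after a length correction 10 of 13 were higher in sheep 1, with no other change. Control sheep 3 held the highest value for 11 of the 13, against 41% of all transcripts, and control sheep 1 the lowest for 12.

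CD3E and CD3D encode chains of the CD3 complex, which carries the signal of the T cell receptor into the cell. CD3E had 4.08, 105 and 328 RPKM in control sheep 1, 2 and 3 and 65.0, 42.6 and 94.6 RPKM with linseed. The control values spanned a far wider range than the linseed values, which lay inside it, and the log2 change was 0.21 ± 1.22 (SE; limma adjusted p = 0.945). CD3D had 0.185, 8.57 and 31.3 RPKM in controls and 1.36, 1.26 and 5.77 RPKM with linseed, a log2 change of -1.11 ± 1.04. Its control sheep 1 and linseed sheep 1 values rest on 5 and 8 reads.

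CD4, the coreceptor for MHC class II on helper T cells, had 0.387, 7.47 and 32.5 RPKM in controls and 1.18, 2.32 and 4.37 RPKM with linseed (log2 change -1.11 ± 0.98 SE). CD8B, a chain of the coreceptor for MHC class I on cytotoxic T cells, had 1.01, 12.5 and 43.7 RPKM in controls and 4.06, 6.24 and 15.2 RPKM with linseed (-0.35 ± 0.99). For both genes the linseed libraries lay between the lowest and highest control libraries. In controls the order of sheep was 1, 2, 3 for CD3E, CD3D, CD4 and CD8B alike.

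Adhesion and modulatory receptors of T cells differed in sheep 2, where CD2 was lower with linseed and CD6 and CD7 were higher. CD2, which binds its ligand on partner cells, had 0.269, 9.26 and 38.3 RPKM in controls and 11.3, 7.03 and 6.66 RPKM with linseed. CD6, a scavenger receptor family member of T cells, had 0.751, 9.04 and 49.4 RPKM in controls and 10.4, 10.9 and 13.1 RPKM with linseed. Linseed libraries were close to one another for both genes, with SDs of 2.60 and 1.41 RPKM (n = 3) against 19.9 and 26.0 RPKM in controls. CD7, an immunoglobulin-type receptor of T and NK cells, was the member of the group with the highest positive change, at 1.54 ± 0.94 (SE; limma adjusted p = 0.424). It had 0.226, 12.1 and 11.3 RPKM in controls and 34.2, 15.8 and 7.19 RPKM with linseed. The control sheep 1 value of CD7 rests on 6 reads, and its change was 0.42 without that library and -0.11 without both libraries of sheep 1.

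Receptors of activation and costimulation were near or under 1 RPKM in most linseed libraries. CD69, an early activation antigen, had 0.0989, 9.98 and 13.8 RPKM in controls and 0.453, 0.562 and 1.86 RPKM with linseed (log2 change -1.59 ± 0.89 SE). Its adjusted p was 0.392 in limma and 0.12 with the block. CD27, a costimulatory TNF receptor, had 0.283, 1.21 and 23.1 RPKM in controls and 0.577, 0.715 and 1.40 RPKM with linseed. The control mean of CD27 thus comes almost entirely from sheep 3. CD28, the receptor for CD80 and CD86, had 0, 1.03 and 4.57 RPKM in controls and 0.307, 0.507 and 0.152 RPKM with linseed, from 43 reads in all.

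CD40LG, the ligand by which helper T cells engage CD40, was lower with linseed in all 3 sheep but is thinly covered, with 57 reads. It had 0.112, 3.03 and 3.00 RPKM in controls and 0, 0 and 0.574 RPKM with linseed, where 0 reads allow up to 0.771 RPKM in sheep 1 and 0.638 in sheep 2. The sheep 1 difference is that of 2 control reads from 0 reads with linseed. As the limit of 0.771 RPKM exceeds the control value of 0.112 RPKM, the direction in sheep 1 is not settled. The log2 change of CD40LG was -1.17 ± 0.57 (SE), with a limma adjusted p of 0.345, or 0.142 with the block.

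Of the receptors shared by NK and T cells, CD96 had 1.74, 23.6 and 115 RPKM in controls and 9.47, 6.85 and 23.3 RPKM with linseed (-0.66 ± 1.12 SE). CD244 had 0.0561, 4.01 and 10.3 RPKM in controls and 0.566, 0.552 and 0.638 RPKM with linseed (-1.30 ± 0.77). The linseed values of CD244 all lay between those of control sheep 1 and 2. CD5, a regulator of T cell receptor signalling, was not tested, with 25 reads over the 6 libraries. Beside these antigens, the T cell kinase gene LCK had 0.0412, 3.65 and 19.8 RPKM in controls and 2.08, 2.03 and 6.51 RPKM with linseed, and perforin (PRF1) had 1.16, 6.10 and 104 RPKM in controls and 15.0, 6.76 and 27.4 RPKM with linseed. CD247, a further signalling chain of the T cell receptor complex, had 2.40, 25.3 and 89.1 RPKM in controls and 0.407, 5.04 and 12 RPKM with linseed, the first from 2 reads. All 3 genes repeat the control order of sheep 1, 2, 3, but in sheep 1 LCK and PRF1 were higher with linseed and CD247 was lower, as it was in the other sheep.

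**Figure D3:**
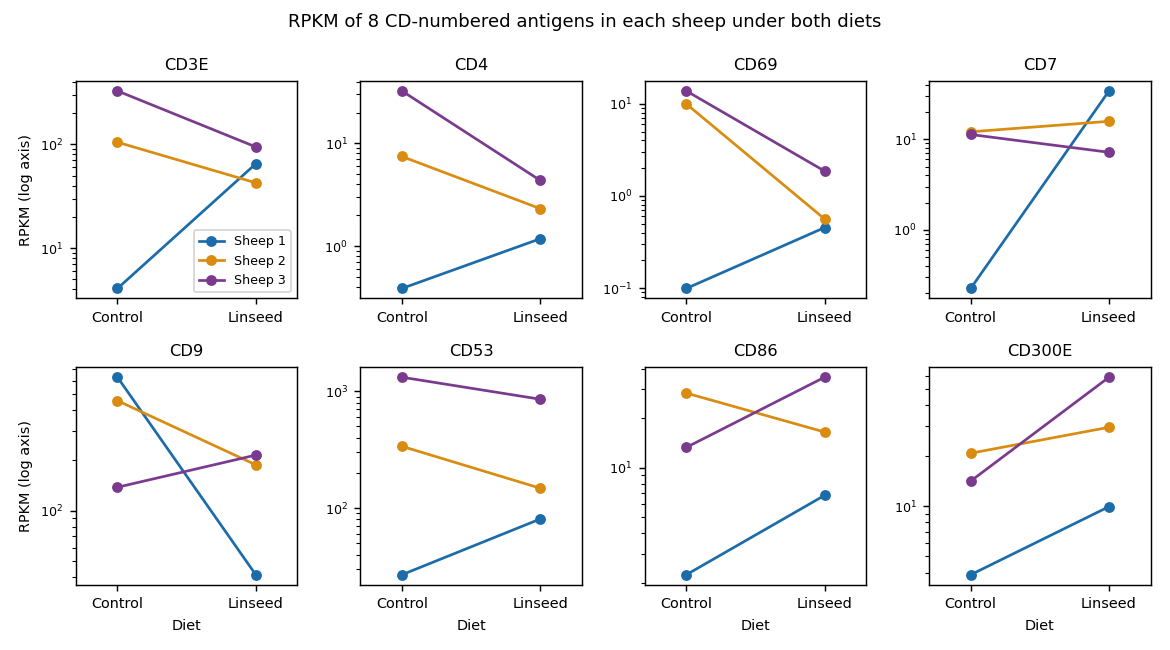
Lines join the RPKM of each sheep under control and linseed (log axes) for 8 antigens. CD3E and CD4 go up in sheep 1 and down in sheep 2 and 3, CD9 goes down in sheep 1 and 2 and up in sheep 3, and CD300E goes up in all 3.

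Ratios of antigens within a library do not depend on how the library is scaled, and 18 such ratios were computed after the levels had been seen. In 3 of the 18 the diets did not overlap, all lower with linseed. CD4 per CD8B, in the order of sheep 1 to 3, was 0.382, 0.596 and 0.743 in controls and 0.291, 0.373 and 0.288 with linseed. CD4 per CD3E was 0.0948, 0.0711 and 0.099 in controls and 0.0182, 0.0545 and 0.0462 with linseed. CD69 per CD3E was 0.0242, 0.095 and 0.042 in controls and 0.00697, 0.0132 and 0.0196 with linseed. Among all tested transcripts, 2.14% lay wholly lower with linseed when taken per CD3E and 3.08% when taken per CD8B. The shares wholly higher were 1.99% and 3.95%. CD3E itself ran from 4.08 to 328 RPKM in controls, so division by it spreads transcripts that do not follow it. These shares over all transcripts are therefore no like measure for ratios between T cell genes. For the ratios per CD86, CD81 and CD53 no such share was computed.

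The two-sided exact permutation p was 0.1 for each of these 3 ratios, the smallest that 3 libraries against 3 can give, and 0.6 after Benjamini-Hochberg adjustment over the 18. That test took the libraries as unpaired, although the same ewes gave both groups. Each of the 3 ratios shares CD4 or CD3E with another, so they are not separate results. Counting error is large where reads are few. The 95% exact interval of CD4 per CD8B ran from 0.179 to 0.763 in control sheep 1 and from 0.233 to 0.353 in linseed sheep 3, so these overlap. That of control sheep 2, 0.454 to 0.778, overlaps those of linseed sheep 1 (0.115 to 0.656) and 2 (0.208 to 0.641). That of control sheep 3 ran from 0.659 to 0.839. For CD69 per CD3E, control sheep 1 rests on 4 CD69 reads, and its interval of 0.00649 to 0.0636 holds the values of all 3 linseed libraries. Linseed sheep 1 and 2 rest on 4 and 6 CD69 reads. Such intervals cover counting error only. CD7 per CD3E was higher with linseed in all 3 sheep, with 0.0553, 0.115 and 0.0343 in controls and 0.525, 0.371 and 0.076 with linseed, but the groups overlapped. CD3D per CD3E was lower in all 3 sheep, with 0.0454, 0.0816 and 0.0956 in controls and 0.0209, 0.0296 and 0.061 with linseed. CD96 per CD3E was also lower in each, with 0.427, 0.225 and 0.351 in controls and 0.146, 0.161 and 0.246 with linseed. Groups overlapped for both, and CD3D had 5, 8 and 9 reads in control sheep 1, linseed sheep 1 and linseed sheep 2. A ratio per CD3E can move through either gene, and which of them moved was not tested.

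**Figure D4:**
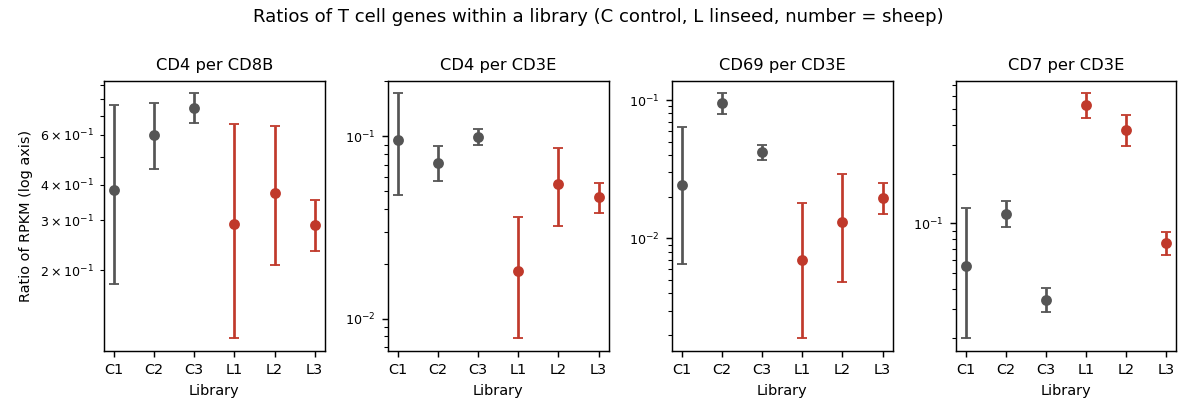
Points are ratios of RPKM within a library (log axes; C control in grey, L linseed in red) and bars are 95% exact intervals from the reads. CD4 per CD3E is at most 0.0545 in linseed libraries and at least 0.0711 in controls. Its interval in control sheep 1 overlaps those of linseed sheep 2 and 3, and its interval in control sheep 2 overlaps that of linseed sheep 2.

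The 4 tetraspanins were the most abundant group, with summed levels of 885 to 1891 RPKM in controls and 183 to 1648 RPKM with linseed, and none passed. CD9, a tetraspanin of many cell types including epithelium, had 629, 455 and 138 RPKM in controls and 41.3, 188 and 215 RPKM with linseed. It was lower with linseed in sheep 1 and in sheep 2 but higher in sheep 3, a log2 change of -1.51 ± 0.82 (SE; limma adjusted p = 0.381). CD53, restricted to leukocytes, had 26.9, 338 and 1318 RPKM in controls and 80.7, 148 and 854 RPKM with linseed (-0.09 ± 1.27). Its order of sheep was 1, 2, 3 under both diets, opposite to the order of CD9 in controls.

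CD81, part of the B cell coreceptor and widely expressed, had 228, 228 and 402 RPKM in controls and 49.8, 142 and 539.6 RPKM with linseed (-0.81 ± 0.83 SE). CD82, which organises adhesion receptors, was higher in all 3 sheep, with 0.697, 4.57 and 33.9 RPKM in controls and 11.2, 5.20 and 39.2 RPKM with linseed. Its log2 change of 1.07 ± 1.05 (limma adjusted p = 0.616) came mainly from sheep 1, at 2.85 against 0.15 and 0.21 in sheep 2 and 3. Without sheep 1 its change was 0.18, and on a total that omits milk proteins CD82 was lower in sheep 2. These values are those of its most abundant transcript. None of the other tested transcripts of CD82 was higher in all 3 sheep. Their lowest log2 differences were -1.13 in sheep 2, -0.07 in sheep 3 and -0.36 in sheep 3. Of 14 tetraspanins under other symbols that were found, 9 were tested. Of these 9, limma called 0 without the block, with 2 lower at an unadjusted p under 0.05 (7% of all transcripts), or 4 with the block (14.3% of all). In all 3 sheep 2 were higher and 4 lower, against 23% and 26.2% of all transcripts, and their median log2 change was -0.78. TSPAN13, with a log2 change of -2.08 ± 0.68, was called lower with the block (limma adjusted p = 0.0488), and TSPAN3 had -2.39 ± 0.71 and a blocked adjusted p of 0.0598. TSPAN6 (-1.42 ± 0.80) was lower and ROM1 (0.93 ± 0.57) and TSPAN31 (0.40 ± 0.61) higher in each sheep.

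Antigen presentation and costimulation was represented by 7 tested genes, and their directions differed by sheep in another way than those of T cell genes. In sheep 1, 6 of 7 were higher with linseed (50.5% of all transcripts), and in sheep 2, 6 of 7 were lower (48.7% of all). In sheep 3, 5 of 7 were higher and 2 of 7 lower (57.4% of all). With the 3 other scalings all 7 were lower in sheep 2. The direction in sheep 2 depended on the transcript. Other tested transcripts of CD83, CD84 and CD86 were higher there, by 0.40 to 1.27 on the log2 scale, and that of CD40 was lower (-0.17). CD86, a ligand of CD28, had 2.23, 28.5 and 13.3 RPKM in controls and 6.79, 16.5 and 35.6 RPKM with linseed (log2 change 0.62 ± 0.87 SE). CD80, the other such ligand, had 0.771, 4.58 and 25.1 RPKM in controls and 1.49, 3.31 and 6.04 RPKM with linseed (-0.59 ± 0.90). CD80 per CD86 was 1.89 in control sheep 3 and 0.161 to 0.346 in the other 5 libraries, so the control library of sheep 3 stood apart in the balance of the 2 ligands.

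CD83, a marker of mature dendritic cells, had 4.95, 37.2 and 13.6 RPKM in controls and 9.83, 11.6 and 57.8 RPKM with linseed. CD84, a self-ligand of the SLAM family, had 3.05, 31.7 and 26.2 RPKM in controls and 4.33, 26.7 and 34.5 RPKM with linseed, lowest in sheep 1 under both diets. CD40, the receptor through which T cells activate antigen-presenting cells, had 0.0493, 9.51 and 0.211 RPKM in controls and 3.16, 3.36 and 3.81 RPKM with linseed. For this transcript of CD40, the most abundant, the linseed libraries lay close together (SD 0.333 RPKM, n = 3) and the controls did not (SD 5.41). Its control sheep 1 and 3 values rest on 1 and 2 reads. The second transcript of CD40, also tested, had the reverse, with an SD of 2.67 RPKM with linseed and 0.339 RPKM in controls. The closeness thus belongs to 1 transcript and not to the gene.

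CD1D, which presents lipids to NKT cells, was higher in all 3 sheep, but by only 0.36, 0.01 and 0.27 on the log2 scale. It had 0.954, 3.21 and 5.13 RPKM in controls and 1.51, 3.24 and 6.39 RPKM with linseed, its mean change was -0.06 after a length correction, and it was lower in sheep 2 with each of the 3 other scalings. CD274, the inhibitory ligand PD-L1, was lower in all 3 sheep, with 1.22, 0.465 and 6.91 RPKM in controls and 0, 0.171 and 0.669 RPKM with linseed. Its log2 change was -1.24 ± 0.63 (SE; limma adjusted p = 0.36, and 0.129 with the block), and 0 reads in linseed sheep 1 allow up to 0.311 RPKM. The sheep 2 values of CD274 rest on 8 control reads and 2 linseed reads.

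Among pattern recognition and scavenger receptors, 2 of 6 genes found were tested. CD14, which hands bacterial lipopolysaccharide to TLR4, had 9.13, 30.7 and 98.1 RPKM in controls and 22.7, 21.5 and 85.2 RPKM with linseed. Its log2 change was 0.18 ± 0.88 (SE), and sheep 3 had the highest level under both diets. CD300E, an activating receptor of myeloid cells, had 3.88, 20.7 and 14.1 RPKM in controls and 9.92, 29.6 and 59.0 RPKM with linseed. It was higher in each sheep, by 1.16, 0.50 and 1.99 in log2 units, with a mean of 1.22 ± 0.80 (limma adjusted p = 0.455) or ± 0.55 with the block (0.172). CD300LD, a myeloid receptor of the same family, had 0, 0 and 2.74 RPKM in controls and 0, 0.336 and 4.79 RPKM with linseed, so it was read mainly in sheep 3.

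Of 11 genes found in the receptor complex and signalling path that CD14 serves, 10 were tested, and limma called 0 with or without the block. At an unadjusted p under 0.05, limma had 0 without the block, against 8.5% higher and 7% lower among all transcripts. With the block it had 2 lower (LBP and TICAM2), against 14.3%. The median log2 change of the 10 was -0.47. TLR2 (0.55 ± 0.67 SE) and the adaptor gene TICAM1 (0.92 ± 0.53) were higher in all 3 sheep. LBP (-1.37 ± 0.71), which loads lipopolysaccharide onto CD14, TICAM2 (-1.11 ± 0.55), TLR4 (-0.75 ± 1.41) and MYD88 (-0.67 ± 0.95) were lower in all 3. LY96, the partner chain of TLR4 also named MD-2, had -0.57 ± 0.58. TLR4 had 2.11, 0.437 and 81.5 RPKM in controls and 1.64, 0.322 and 21.4 RPKM with linseed, highest in sheep 3 under both diets, as was CD14.

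The role group named for B cells was sparse, and of its 2 tested genes only CD79A is part of the B cell receptor. CD79A, a signalling chain of the B cell receptor, had 0.324, 6.40 and 4.23 RPKM in controls and 3.96, 7.65 and 3.48 RPKM with linseed (log2 change 0.64 ± 0.72 SE). CD320, the receptor for vitamin B12 bound to transcobalamin, had 3.87, 0.837 and 1.56 RPKM in controls and 2.42, 2.0 and 1.06 RPKM with linseed (-0.04 ± 0.56). CD320, CD9 and CD59 were the tested antigens with the highest level in control sheep 1. CD180, a toll-like receptor homologue that was not tested, had 0.106, 1.23 and 0.368 RPKM in controls and 0.121, 0.301 and 3.62 RPKM with linseed.

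The complement regulator CD59, which blocks the membrane attack complex, was lower in all 3 sheep. It had 46.3, 44.4 and 31.8 RPKM in controls and 28.4, 33.9 and 13.5 RPKM with linseed, and only linseed sheep 2 reached the control range, at 33.9 against 31.8. Its log2 change was -0.75 ± 0.61 (SE; limma adjusted p = 0.544). CD46, a cofactor for cleavage of C3b, was not tested in the main fit, as its most abundant transcript averaged 0.961 RPKM. That transcript, not the sum over the gene, had 2.84, 0.396 and 2.14 RPKM in controls and 0, 0 and 0.388 RPKM with linseed. The control sheep 1 value of CD46 comes from 258 reads, while 0 reads allow up to 0.151 RPKM in linseed sheep 1 and 0.125 in linseed sheep 2. The other 7 transcripts of CD46 had fewer reads, and how the authors divided reads among the 8 sets each value.

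CD164, a sialomucin of cell adhesion, had the smallest p of the 31 antigens. It had 184, 105 and 228 RPKM in controls and 18.1, 43.0 and 141 RPKM with linseed, with log2 differences of -3.28 in sheep 1, -1.26 in sheep 2 and -0.69 in sheep 3. Only linseed sheep 3 reached the control range. The log2 change of -1.75 ± 0.77 (SE) had a limma adjusted p of 0.313, or 0.109 with the block. The second transcript of CD164 had 23.5, 15.6 and 21.2 RPKM in controls and 4.47, 3.02 and 11.3 RPKM with linseed, wholly below the controls.

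Among the 13 antigens under a mean of 1 RPKM were CD46, CD180, CD300LG, CD109, CD5, CD93, CD70, CD177, CD200, CD34, CD1 and CD207. CD34 and CD93, found on blood vessel and progenitor cells, were read in sheep 3 alone, at 0.481 and 0.823 RPKM in its control library and 0.315 and 0.516 RPKM in its linseed library. CD177, a neutrophil antigen, had at most 0.635 RPKM, beside neutrophil markers S100A8 and S100A9 at 195 to 1789.9 RPKM. CD207, the langerin of Langerhans cells, had 3 reads in all. With these low antigens included, 8 of 44 were lower and 3 higher in all 3 sheep, but no share over all unfiltered transcripts is given beside these counts. For CD5 and CD300LG the sheep 1 difference is that of 2 and 4 control reads from 0 reads with linseed.

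CD antigens that go by other symbols gave a wider view of the same cells. Of a list of 75 such genes, 48 were found and 42 tested, and limma called 0 without the block. At an unadjusted p under 0.05, limma had 2 higher and 4 lower, against 8.5% and 7% of all transcripts. With the block it had 3 and 9, against 12.7% and 14.3%. The median log2 change of the 42 was -0.49, and 10 of them were higher and 14 lower in all 3 sheep, against 23% and 26.2% of all transcripts. Endoglin (ENG, CD105) had 1.22, 6.49 and 12.9 RPKM in controls and 15.4, 28.7 and 44.1 RPKM with linseed, a log2 change of 2.19 ± 0.76 (SE), with an adjusted p in limma of 0.0475 with the block and 0.264 without. The Fc receptor FCGR1A (1.91 ± 0.76) and basigin (BSG, 1.20 ± 0.57) were also higher in all 3 sheep. The cytokine receptor chain IL6ST (-1.81 ± 0.57) and the integrin chains ITGAV (-1.83 ± 0.60) and ITGB1 (-1.97 ± 0.72) were lower in all 3.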

How the data were processed

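RNA of milk somatic cells was measured in 6 libraries (TruSeq RNA kit, per the labels, and HiSeq2000, per the series design). The authors deposited a table of RPKM values for 49705 RefSeq transcripts. The submitters' processing notes name Trimmomatic 0.33. No coordinates are printed, since the build, like the aligner and the counter, is not given in the sources used here. Groups follow the letter in each sample's title, read with the series design. Whether libraries were prepared together is not stated.

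Transcript identifiers were matched without version to the RefSeq genes of ARS-UI_Ramb_v3.0 for their symbols (15836 of 49705 transcripts, 31.9%). Of 63 symbols in that table that meet the rule, 44 were found, and the rest, CD8A, CD44, CD47, CD55 and CD63 among them, are not analysed here. The values of 1 antigen under 1 RPKM are not reported here. The RPKM steps gave each library's total and each transcript's length with a tolerance of 0.002 reads, and the reads so recovered summed to 99.43% to 99.82% of the totals. Lengths of transcripts with few reads are less certain. At 2000 nt, 1 read was worth 0.0221 to 0.101 RPKM. A limit for 0 reads is what 3 reads would give.

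The 15891 transcripts that averaged 1 RPKM or more were compared as log2(RPKM + 1), which understates changes of low transcripts, with limma 3.58.1 in R 4.3.3 (mean-variance trend, Benjamini-Hochberg adjustment, threshold 0.05). The main fit had no block (4 residual degrees of freedom, 2 with the block). Libraries of the same number come from the same ewe by the labels' animal identifiers. Across transcripts, the 2 libraries of sheep 1, 2 and 3 deviated from their groups with correlations of 0.18, 0.25 and 0.40, though for control sheep 1 that with linseed sheep 2 was higher (0.24). A difference within a sheep is on the same log2 scale. The scripts were tested on simulated data.

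Values were to be given for the 3 most abundant tested members of each role, up to 10 of smallest p in each direction among those that moved alike in all sheep, and a fixed set. CD2, CD3D, CD7, CD8B, CD27, CD28, CD69 and CD244, and the members under 1 RPKM, were added after their values were seen. Genes of other lists were the up to 3 of smallest p in each direction, and MYD88, TLR4, LCK, PRF1 and CD247, and the ratios, were added after their values were seen. The members and lists were chosen with earlier results of these data known. Alternatives changed the pseudocount, filter, scaling, test, length correction, block, transcript choice and libraries.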

Additional observations from a re-analysis of the deposited data

How the results depend on the processing

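No alternative gave a call among the CD-numbered antigens, with smallest adjusted p-values in limma from 0.092 (without linseed sheep 3) to 0.917 (without sheep 1, an alternative chosen, like those leaving out any whole sheep, after seeing the data). With the sheep as a replicate block, 416 transcripts were called in limma (203 higher, 213 lower) but 0 antigens, and the block changed no call of an antigen. The other alternatives called 0 transcripts. The sign of the change held in every alternative run for 13 of the 31 tested antigens: CD9, CD164, CD59, CD300E, CD82, CD3D, CD4, CD69, CD40, CD244, CD274, CD40LG and CD28. Their sizes did not hold. Leaving out a library or a sheep moved CD4 to between -2.31 and -0.02, CD3D to between -2.41 and -0.03, CD28 to between -1.36 and -0.02, CD82 to between 0.06 and 2.24, CD9 to between -2.59 and -0.32 and CD40 to between 0.31 and 1.99. Over the other 7, the values ran from -2.77 to -0.37 for those lower and from 0.59 to 1.87 for CD300E. The median change of the antigens, -0.09, ran from -1.07 to 0.43 when a library or sheep was left out. Antigens higher in all 3 sheep numbered 3, and 1 on a total that omits milk proteins, which moved the median over all transcripts from -0.12 to -0.28. When a sheep was left out, the number higher in both others ran from 4 to 7, and the number lower from 5 to 17. Antigens lower in all 3 sheep numbered 4, 8 of 44 without the filter, 2 of 20 at 5 RPKM or more and 8 after the length correction. No share over all transcripts is given for the counts under these alternatives. The number of genes or sheep counted differs between some of these alternatives, and the cause of the shifts in count was not tested.

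Signs turned for CD3E (-0.19), CD14 (-0.06) and CD320 (0.16) with quantile normalization, for CD14 (-0.04) and CD84 (-0.02) with milk proteins omitted, and for CD53 (0.05) and CD8B (0.14) with voom on the recovered reads. After the length correction, with and without the replicate block, they turned for CD3E (-0.07), CD14 (-0.19), CD84 (-0.05), CD1D (-0.06) and CD300LD (-0.08). Leaving out a library or a sheep turned the sign of 18 antigens. Their changes ran from -1.61 to 1.17 for CD53, -1.70 to 0.01 for CD81, -1.53 to 1.49 for CD3E, -0.65 to 1.00 for CD14, -2.09 to 0.62 for CD96 and -0.37 to 1.44 for CD83. They ran from -0.78 to 1.03 for CD84, -0.27 to 1.33 for CD86, -0.86 to 1.57 for CD6, -1.55 to 0.69 for CD8B, -0.11 to 2.60 for CD7 and -1.36 to 1.46 for CD2. For CD80 they ran from -1.51 to 0.43, for CD27 from -1.97 to 0.15, for CD79A from -0.11 to 1.13, for CD1D from -0.25 to 0.60, for CD320 from -0.41 to 0.35 and for CD300LD from -0.43 to 0.98. Depth limits CD28, CD40LG, CD300LD and CD320, with 43 to 170 reads over the 6 libraries.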
